A study of Mus musculus with 6 samples.

Results

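Axon guidance genes encode the ligands and receptors by which growing axons and migrating cells are attracted or repelled. The genes described are the semaphorins (Sema), ephrins (Efna, Efnb), slits (Slit) and netrin-1 (Ntn1) on the ligand side, and the plexins (Plxn), neuropilins (Nrp1, Nrp2), Eph receptors (Epha, Ephb), Robo receptors and the netrin receptors Unc5b and Unc5c on the receptor side. They were chosen by gene symbol, and the deposited table lists 63 of them among 23366 genes. A mean of at least 10 normalized counts over all libraries was reached by 55, of which 31 encode ligands and 24 receptors. The cells were SC4, a mouse Schwann cell line grown from a schwannoma without Nf2, which encodes the tumour suppressor merlin. One group received a control siRNA and the other a pooled YAP siRNA, and RNA was sequenced 48 hours after transfection. Both groups therefore lack Nf2 and both were transfected, and no cells with Nf2 were compared. Each group held 3 libraries numbered 1 to 3. Whether these came from separate cultures is not stated, and p-values then cover only how far these libraries lie apart, which may be technical variation.

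Semaphorins signal through plexins, and the secreted class 3 semaphorins usually need a neuropilin as co-receptor. Ephrins are held on the membrane of one cell and bind Eph receptor tyrosine kinases on another, so that both cells can respond. Slits bind Robo receptors and mostly repel, while netrin-1 attracts or repels depending on whether DCC or UNC5 receptors are present. In peripheral nerve, Schwann cells are both a source of and a target for such cues, and contact through ephrin-B and EphB2 is known to group Schwann cells into cords during nerve repair.

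The libraries held between 18025132 and 60078880 reads in genes, so that 1 read was worth 0.461 to 1.52 normalized counts, the deposited unit, which is the read count divided by a size factor for its library. Yap1, the target of the siRNA pool, had 4749.6, 5732 and 4751 normalized counts in control replicates 1, 2 and 3 and 936, 571 and 475 with YAP siRNA, which left 13.0% of the control mean. Its limma adjusted p was 4.5e-04 paired, 0.118 unpaired and 0.0604 paired without a mean-variance trend, so that Yap1 itself did not pass in the last 2 of these fits. The first principal component, with 63.5% of the variance over all tested genes, separated both libraries numbered 1 from the 4 others. Same-numbered libraries also deviated together from their group means. Replicates 2 and 3 did so across numbers as well, so how these match is not settled. Results are given with the replicate number as a block (a paired fit) beside the unpaired fit, and without replicate 1 of both groups. Of 12 Schwann cell lineage markers 9 had a mean of at least 10, with Ncam1, Mbp, Pmp22 and Ngfr among them, but the defining marker Sox10 did not exceed 15.6 normalized counts in any library. Of 5 fibroblast markers 4 had a mean of at least 10, with Col1a1 between 90209.6 and 280123 normalized counts. The summed level of the 5 macrophage markers was 284 to 343 normalized counts in control libraries and 215 to 262 with YAP siRNA, with Itgam at or below 1.56. Of these markers only Csf1r lay apart, at 120, 168 and 196 in controls and 81.7, 62.6 and 84.4 with YAP siRNA. Ptprc, Cd68, Aif1 and Itgam overlapped between the groups. Of 4 endothelial markers 3 had a mean of at least 10, with Kdr between 115 and 222 and Tie1 at or below 0.780. Of 4 neuron markers 2 did, with Syt1 between 222 and 1580 and Rbfox3 at or below 0.461. Summed levels of the Schwann cell, fibroblast, endothelial and neuron lists overlapped between the groups. Whether these marker levels play a part in the results below was not tested.

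Of the 55 genes that passed the filter, 5 were called higher and 14 lower with YAP siRNA in the paired fit, at a limma adjusted p under 0.05. That is 9.09% and 25.5% of them, where 8.32% and 8.96% of all 12820 tested genes were called. The words rose and fell are kept for genes that passed in this fit. Among the ligands 1 rose and 10 fell of 31, with a median log2 fold change of −0.41, and among the receptors 4 rose and 4 fell of 24, with a median of −0.11. The median over all tested genes was 0.0094, and the difference between ligands and receptors was not tested. In this bulk RNA, fewer cells that express a gene and less RNA per cell cannot be told apart.

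These calls rest on the pairing. In the unpaired limma fit 0 of the 55 genes passed, as did 0% of all tested genes in either direction. An unadjusted p under 0.05 was seen for 12 of the 55, and for 1558 of all 12820 tested genes. With edgeR without pairing 0 of the 55 passed as well, and DESeq2 without pairing called 2 higher and 6 lower, where it called 2.54% and 3.1% of all tested genes. With the block but without limma's mean-variance trend 0 of the 55 passed, against 0.0936% higher and 0.14% lower of all tested genes. Of the 19 genes called with the block, 19 were also called with the block by edgeR and by DESeq2. Without replicate 1 of both groups, unpaired limma called 7 of the 55 higher and 23 lower, the 19 among them, where it called 14.9% and 16.4% of all tested genes. That fit has 2 libraries per group and was chosen after the data were seen, so its p-values here and below are a description only. Without replicate 2, 4 of the 19 kept their call with the block, namely Sema7a, Efna1, Plxna4 and Plxnc1, and without replicate 3 13 did. Calls over all tested genes also became fewer in these fits. Those of lower genes went from 1149 to 177 without replicate 2 and to 590 without replicate 3. Calls of higher genes were fewer in both fits as well, so losing calls is not particular to these members.

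The 3 libraries of a group lay apart from the 3 of the other for 12 genes that were lower (21.8%) and 3 that were higher (5.45%), against 9.49% and 9.47% of all tested genes. For a gene with groups that far apart an exact permutation test, two-sided, gives p = 0.1, the smallest that 3 against 3 libraries allow. In all 3 same-numbered pairs 24 of the 55 genes were lower with YAP siRNA (43.6%) and 10 were higher (18.2%). Over all tested genes these shares were 27.1% and 27.4%.

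**Figure D1:**
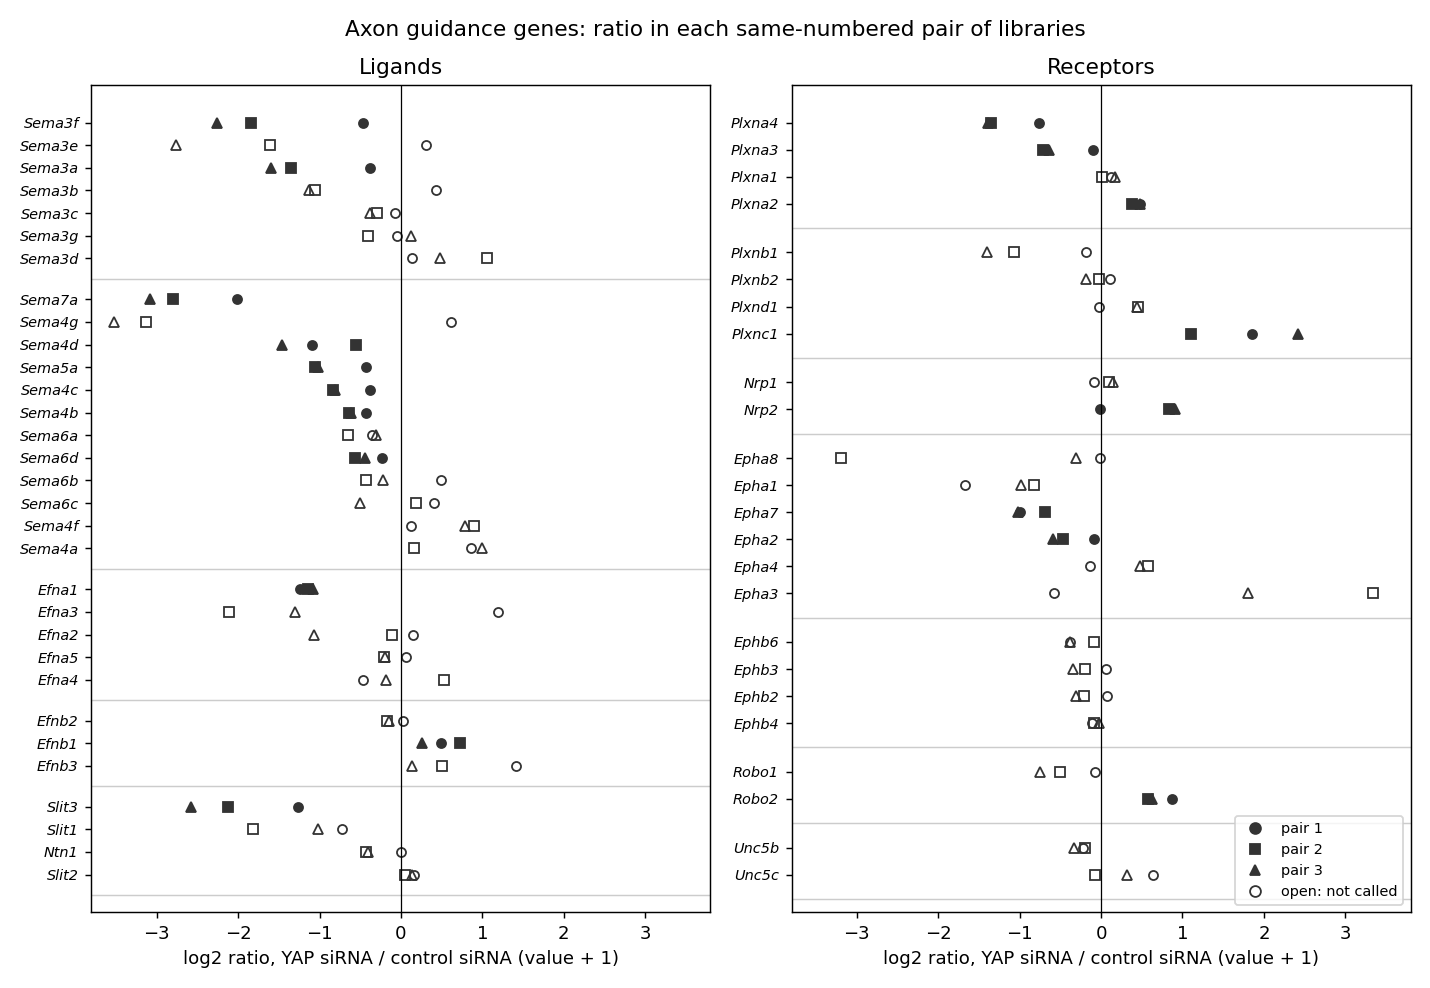
Log2 ratio of YAP siRNA to control siRNA (normalized count + 1) in each same-numbered pair of libraries for the 55 genes, ligands on the left and receptors on the right, grouped by family with 1 symbol per pair; filled symbols mark genes called in the paired fit. Most filled ligand symbols lie left of 0, and in many genes the circle of pair 1 lies nearer 0 than the other symbols.

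The largest fall of the set was that of the semaphorin gene Sema7a, and the gene of its receptor plexin-C1, Plxnc1, had the largest rise. Sema7a encodes a semaphorin anchored to the membrane by a lipid that also binds integrins. It had 6712, 9288 and 10995 normalized counts in control replicates 1, 2 and 3 and 1669, 1330.1 and 1296 with YAP siRNA. Each YAP siRNA library was thus far below each control library, with the mean at 15.9% of that in controls. The log2 fold change was −2.63 (SE 0.178, limma adjusted p = 5.9e-04 paired and 0.118 unpaired). Without replicate 1 of both groups it was −2.94, and without replicate 2 the paired adjusted p was 0.00238.

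Plxnc1 had 18.2, 39.8 and 30.4 normalized counts in control libraries and 68.5, 86.8 and 167 with YAP siRNA. The groups did not overlap, although the YAP siRNA libraries themselves spread over more than the whole control range. Its log2 fold change was 1.79 (SE 0.340, limma adjusted p = 0.0111 paired and 0.238 unpaired), and 1.76 without replicate 1. On the scale of normalized counts per kilobase of exons, Plxnc1 was at 4.03 in control libraries and 14.7 with YAP siRNA, while Sema7a went from 2729 to 434. The receptor's rise was therefore from a low level and the ligand's fall from a high one. An annotated gene on the same strand, Gm48718, shares 1.57% of the exon bases of Plxnc1.

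The promoters of this ligand and receptor pair are shown because the genes moved in opposite directions after the lowering of Yap1, whose protein acts on DNA through TEAD factors. Each window runs from 250 bases before to 50 after the annotated start, 5′ to 3′ on the strand of the gene, from RefSeq on GRCm38.p6, a later build than the mm9 of the files. Sema7a is taken from chr9:57939862-57940161 on the plus strand and Plxnc1 from chr10:94944796-94945095 on the minus strand. Capitals would mark GGAATG, the core of the TEAD motif, or TGANTCA, the AP-1 motif, on either strand, and neither window holds one.
Sema7a: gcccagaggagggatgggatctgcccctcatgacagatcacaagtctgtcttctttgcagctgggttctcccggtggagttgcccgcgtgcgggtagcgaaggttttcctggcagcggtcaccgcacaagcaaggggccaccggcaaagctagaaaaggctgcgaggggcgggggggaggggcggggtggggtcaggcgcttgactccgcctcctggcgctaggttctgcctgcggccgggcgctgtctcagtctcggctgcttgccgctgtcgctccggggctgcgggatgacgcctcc
Plxnc1: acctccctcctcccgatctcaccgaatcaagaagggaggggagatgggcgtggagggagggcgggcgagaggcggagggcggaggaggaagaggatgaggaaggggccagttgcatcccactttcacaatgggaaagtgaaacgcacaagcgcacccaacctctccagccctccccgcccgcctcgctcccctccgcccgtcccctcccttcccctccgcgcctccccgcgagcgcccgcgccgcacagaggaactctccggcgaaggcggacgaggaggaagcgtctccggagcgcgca
Both windows are rich in G and C, at 67.3% and 69.0%, where the median of all 32851 windows was 52.7%. The absence of these letters says nothing of TEAD or AP-1 binding elsewhere.

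Of the 12 semaphorins outside class 3 that were tested, 6 fell and 0 rose, with a median log2 fold change of −0.50. That is 50% lower and 0% higher, beside 8.96% and 8.32% of all tested genes. Besides Sema7a, those that fell were Sema4b, Sema4c, Sema4d, Sema5a and Sema6d, which all encode transmembrane proteins. For each of the 6 the groups did not overlap, where 9.49% of all tested genes were lower without overlap. Sema5a, whose product carries thrombospondin repeats, had 19487, 34048 and 35926 normalized counts in control libraries and 14479, 16354 and 17778 with YAP siRNA. Control replicate 1 was the lowest control, yet above all YAP siRNA libraries. This gave a log2 fold change of −0.83 (SE 0.126, limma adjusted p = 0.00543 paired and 0.279 unpaired), and −1.04 without replicate 1. Sema4d, the ligand of plexin-B1, went from 129, 115 and 188 to 60.1, 77.7 and 67.8 normalized counts, a log2 fold change of −1.03. The highest YAP siRNA library was below the lowest control, and control replicate 3 was the highest of all. Without replicate 2 the paired adjusted p was 0.0529 for Sema5a and 0.0938 for Sema4d, and without replicate 3 it was 0.184 for Sema4d.

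Sema4b had 2589 ± 426 normalized counts in control libraries and 1743 ± 165 with YAP siRNA (SD, n = 3), a fall of 0.56 on the log2 scale. Sema4c, a ligand of plexin-B2, went from 1297 ± 329 to 795 ± 79.2 (SD, n = 3), a log2 fold change of −0.67. Sema6d, a ligand of plexin-A1, had 1289.8, 1274 and 1231 normalized counts in control libraries and 1094, 863 and 906 with YAP siRNA, with a log2 fold change of −0.41. Its controls agreed closely, and replicate 1 had the smallest difference of the 3 pairs. In the paired limma fit the adjusted p of Sema4b, Sema4c and Sema6d was 0.00807, 0.0114 and 0.0407. Leaving out replicate 2 brought these to 0.116, 0.138 and 0.355, and leaving out replicate 3 brought Sema6d to 0.15.

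Sema4g did not pass and shows how far replicate 1 can differ; it was picked after its values were seen. Its normalized counts were 9.10, 175 and 166 in control libraries and 14.4, 19.2 and 13.6 with YAP siRNA. Control replicates 2 and 3 were far above the other 4 libraries, which all lay at or below 19.2. The log2 fold change was −2.01 (95% interval −3.67 to −0.36, limma adjusted p = 0.0892 paired), and −3.32 without replicate 1 (unpaired limma adjusted p = 2.0e-04). Pair 1, left out in that fit, was higher with YAP siRNA. The remaining 5 of this group, Sema4a, Sema4f, Sema6a, Sema6b and Sema6c, had log2 fold changes from −0.44 to 0.67. Of these, Sema4a, named after its values were seen, had groups that lay apart toward higher. It had 27.3, 35.1 and 24.4 normalized counts in control libraries and 50.5, 39.4 and 49.7 with YAP siRNA. Sema4a did not pass (limma adjusted p = 0.215 paired).

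Among the 7 class 3 semaphorins, which are secreted, 2 fell and 0 rose, with a median log2 fold change of −0.59. That is 28.6% lower and 0% higher, beside 8.96% and 8.32% of all tested genes. Sema3f, which acts through neuropilin-2, had 1106, 5153 and 6526 normalized counts in control libraries and 798, 1440.1 and 1358 with YAP siRNA. Control replicate 1 lay below YAP siRNA replicates 2 and 3, so the groups overlapped, while each pair was lower with YAP siRNA. This gave a log2 fold change of −1.52 (SE 0.278, limma adjusted p = 0.00989 paired and 0.442 unpaired), and −2.05 without replicate 1. Sema3a, which acts through neuropilin-1, went from 398, 1414 and 1510.4 to 304, 553 and 499. For Sema3a only the controls of replicates 2 and 3 were above 1000, and the log2 fold change was −1.11 (SE 0.216, limma adjusted p = 0.0122 paired). Without replicate 2 the paired adjusted p was 0.0598 for Sema3f and 0.0975 for Sema3a.

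Sema3b and Sema3e, named after their values were seen, were lower in pairs 2 and 3 and higher in pair 1. Sema3b had 709, 2589.5 and 2735 normalized counts in control libraries and 952, 1247 and 1246 with YAP siRNA, with a paired adjusted p in limma of 0.156. Its unpaired value without replicate 1 was 1.1e-04, at a log2 fold change of −1.09. Sema3e, the ligand of plexin-D1, had 7.59, 54.6 and 57.1 and 9.62, 17.2 and 7.54, with 0.158 and, without replicate 1, 0.00964. For both genes the fit without replicate 1 leaves out the pair that went the other way. Sema3c, Sema3d and Sema3g had log2 fold changes of −0.25, 0.56 and −0.11 and did not pass.

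On the receptor side of the semaphorins, plexins of class A moved in both directions. Plxna4, a plexin that serves class 3 and class 6 semaphorins, had 895, 2051 and 2037 normalized counts in control libraries and 527, 804 and 779 with YAP siRNA. All YAP siRNA libraries were below all controls, and the fall was seen in each pair. The log2 fold change was −1.17 (SE 0.144, limma adjusted p = 0.00242 paired, 0.0272 paired without replicate 2, and 0.291 unpaired). The antisense gene Plxna4os3 overlaps 0.854% of its exon bases, and the strand setting of the counting is not given in the sources used here. Plxna3, a partner of neuropilin-2, went from 1797, 3885 and 3803 to 1682, 2371 and 2444, with a log2 fold change of −0.48 and hardly any difference in pair 1. Plxna2 rose from 3948, 3797 and 3852 to 5490.0, 4933 and 5371, with groups well apart and a log2 fold change of 0.44 (SE 0.0847, limma adjusted p = 0.0114 paired).

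The adjusted p of Plxna3 was 0.0375 with the block in limma, and 0.32 and 0.0981 without replicates 2 and 3, while for Plxna2 it was 0.113 without replicate 2. Plxna1, the fourth of the class and named after its values were seen, had 14532 ± 2177 normalized counts in control libraries and 15603 ± 2308 with YAP siRNA (SD, n = 3). The paired fit put its log2 fold change at 0.10 (95% interval −0.09 to 0.29). An annotated antisense gene overlaps 10.7% of its exon bases. Of the plexins of classes B to D only Plxnc1 passed, and Plxnb1, Plxnb2 and Plxnd1 had log2 fold changes of −0.88, −0.031 and 0.29.

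Nrp2 and Nrp1 encode the co-receptors of the class 3 semaphorins. Nrp2 had 23803, 13638 and 12888 normalized counts in control libraries and 23582, 24245 and 24218 with YAP siRNA. YAP siRNA replicates 1, 2 and 3 and control replicate 1 were at one level, and only control replicates 2 and 3 were lower. This gave a log2 fold change of 0.58 (SE 0.164, limma adjusted p = 0.0443 paired and 0.424 unpaired), and 0.87 without replicate 1 (unpaired limma adjusted p = 1.3e-04). In pair 1 the log2 ratio was −0.01, against 0.83 and 0.91 in pairs 2 and 3. The paired adjusted p rose to 0.283 when replicate 2 was left out and to 0.0822 when replicate 3 was. Nrp1, taken as its partner after the values were seen, had 4846 ± 338 and 5052 ± 736 normalized counts (SD, n = 3) and a log2 fold change of 0.05 (paired 95% interval −0.15 to 0.25). In replicates 2 and 3, the ligand gene Sema3f was thus lower and the gene of its co-receptor Nrp2 higher with YAP siRNA, and in replicate 1 neither ratio reached those of the other pairs.

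**Figure D2:**
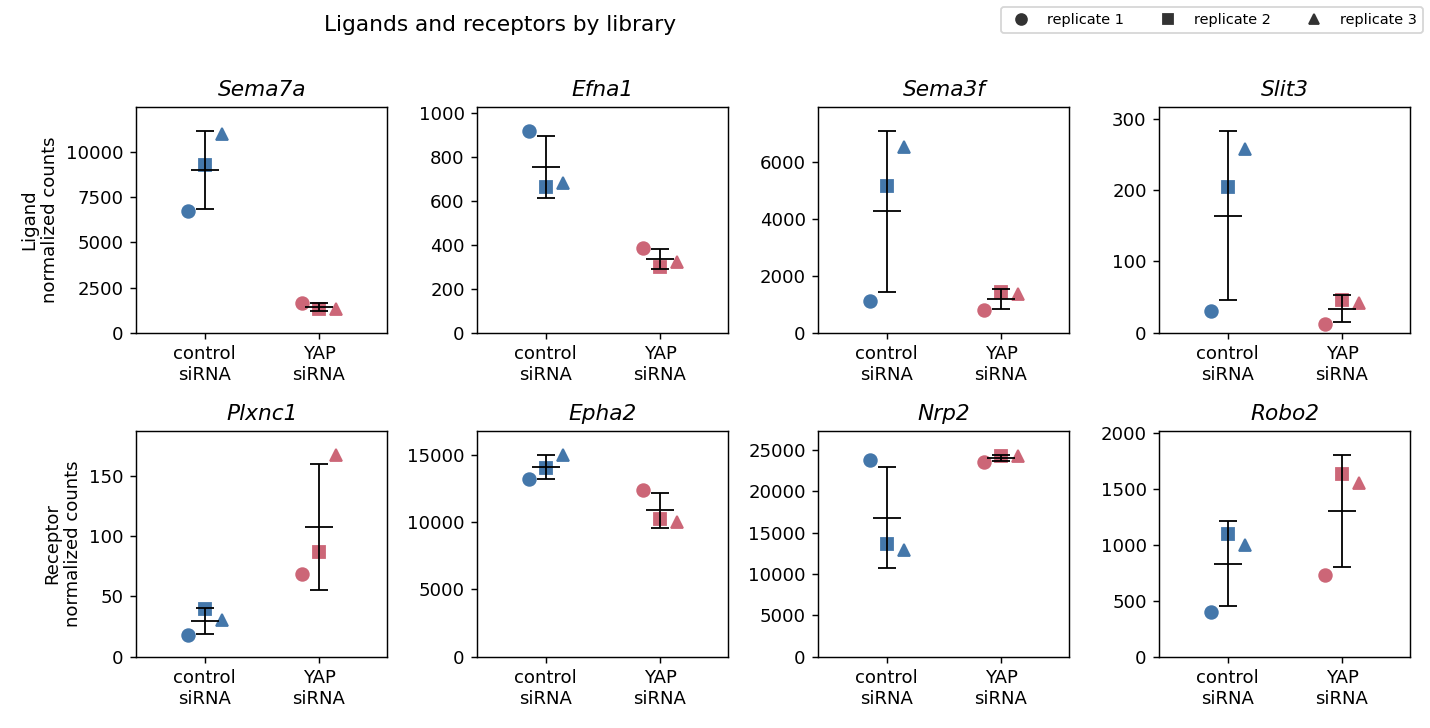
Normalized counts per library for 4 ligand genes (upper row) and the gene of a known receptor of each (lower row), with 1 symbol per replicate number, and bars for the mean ± SD of 3 libraries per group. Sema7a and Efna1 are lower in each YAP siRNA library than in any control, Plxnc1 is higher, and for Sema3f, Slit3 and Nrp2 the circle of control replicate 1 lies near the YAP siRNA values.

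Of the ephrins and Eph receptors of class A, Efna1, Epha2 and Epha7 fell and none rose. Efna1 encodes ephrin-A1, a lipid-anchored ligand of EphA2. It had 919.6, 666 and 682 normalized counts in control libraries and 388, 301 and 322 with YAP siRNA, and the 3 pairs agreed closely, with log2 ratios of −1.24, −1.14 and −1.08. The log2 fold change was −1.15 (SE 0.132, limma adjusted p = 0.00205 paired, 0.0205 paired without replicate 2, and 0.165 unpaired). Epha2 had 13205, 14069 and 15026 and 12415, 10216 and 10008 normalized counts. The groups did not overlap, but in pair 1 the log2 ratio was −0.09, against −0.46 and −0.59 in pairs 2 and 3. Its log2 fold change was −0.38 (SE 0.107, limma adjusted p = 0.0437 paired, 0.309 without replicate 2, and 0.23 without replicate 3). Epha7, a receptor for A-type ephrins such as ephrin-A5, went from 225, 316 and 369 to 112, 196 and 182. Each pair was lower, with a log2 fold change of −0.90 and a paired limma adjusted p of 0.013, which was 0.0875 and 0.0526 without replicates 2 and 3.

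Epha2 made up 97.6% of the summed level of the 6 tested EphA receptor genes in control libraries and 97.5% with YAP siRNA, counted per kilobase of exons. Of the 26 promoter windows of called genes 2 (7.69%) hold the TEAD core, beside 14.7% of all 32851 windows. The window of Epha2 is one of these 2 and is shown for that reason. It was read from chr4:141300971-141301270 on the plus strand of GRCm38.p6 (RefSeq), 5′ to 3′, and capitals mark CATTCC, the reverse complement of GGAATG. The window of its ligand gene Efna1 is the first of 2 that RefSeq gives, chr3:89280902-89281201 on the minus strand, and holds no match.
Epha2: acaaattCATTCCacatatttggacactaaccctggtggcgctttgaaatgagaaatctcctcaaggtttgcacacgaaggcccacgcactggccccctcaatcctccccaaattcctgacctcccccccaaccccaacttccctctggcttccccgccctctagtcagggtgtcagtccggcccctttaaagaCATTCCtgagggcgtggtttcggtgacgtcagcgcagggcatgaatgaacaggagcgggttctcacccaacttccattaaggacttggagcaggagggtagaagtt
Efna1: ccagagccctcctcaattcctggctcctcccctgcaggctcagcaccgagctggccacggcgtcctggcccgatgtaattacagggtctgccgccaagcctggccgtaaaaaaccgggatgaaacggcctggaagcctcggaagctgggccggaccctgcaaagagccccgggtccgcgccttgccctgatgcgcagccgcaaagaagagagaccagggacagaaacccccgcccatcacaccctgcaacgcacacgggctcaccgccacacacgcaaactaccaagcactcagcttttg
The matches in Epha2 begin 243 and 56 bases before the annotated start. They are matches of letters, not sites shown to be bound.

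The other A-type genes did not pass. Efna3, named after its values were seen, had 25.8, 139 and 179 normalized counts in control libraries and 60.1, 31.3 and 72.3 with YAP siRNA, and was higher in pair 1 and lower in pairs 2 and 3. Its exons overlap those of the antisense gene Gm15998 over 14.6% of their length. Epha3 had 27.3, 9.35 and 34.6 and 18.0, 104 and 124 normalized counts, with the opposite pattern, lower in pair 1 and higher in pairs 2 and 3. Its log2 fold change was 1.53 (SE 0.644) at a paired limma adjusted p of 0.132, and without replicate 1 it was 2.58 (unpaired limma adjusted p = 0.00726). That fit leaves out the pair that went the other way. Efna2, Efna4, Efna5, Epha1, Epha4 and Epha8 had log2 fold changes from −1.17 to 0.31.

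Class B showed 1 change. Efnb1, the gene of the transmembrane ligand ephrin-B1, had 780.0, 1101 and 1432 normalized counts in control libraries and 1098, 1818 and 1719.5 with YAP siRNA. It was higher in each pair, while the groups overlapped because both libraries of replicate 1 were low. This gave a log2 fold change of 0.49 (SE 0.120, limma adjusted p = 0.0269 paired, 0.302 without replicate 2, and 0.573 unpaired). Efnb2, named after its values were seen, had 1368 ± 107 and 1275 ± 47.8 normalized counts (SD, n = 3), and the 95% interval of its log2 fold change was −0.34 to 0.14 with the block. Efnb3 had 41.2 ± 15.8 and 64.8 ± 13.3 (SD, n = 3), with an interval of −0.10 to 1.47. Of the receptors Ephb2, Ephb3, Ephb4 and Ephb6, 0 passed, and their log2 fold changes lay between −0.28 and −0.074. The largest was that of Ephb6, a receptor without kinase activity, with 534, 1130.3 and 1263 normalized counts in control libraries and 409, 1067 and 969 with YAP siRNA.

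The slit genes differed from one another. Slit3 had 30.3, 205 and 257 normalized counts in control libraries and 12.0, 46.4 and 42.2 with YAP siRNA. It was lower in each pair, but control replicate 1 lay below YAP siRNA replicates 2 and 3. The log2 fold change was −1.99 (SE 0.332, limma adjusted p = 0.00721 paired and 0.467 unpaired), and −2.35 without replicate 1. It did not pass without replicate 2 (paired adjusted p = 0.0847). Slit2, named after its values were seen, had 2932, 5162 and 5060.2 and 3279, 5338 and 5549, a log2 fold change of 0.11 (95% interval −0.08 to 0.31). Per kilobase of exons, Slit2 was at 437 and Slit3 at 31.4 in the controls, so the slit that fell was the less abundant of these. Slit1 was lowest of all genes that passed the filter, with 10.6, 20.3 and 19.4 and 6.01, 5.05 and 9.04 normalized counts. It was lower in each pair, with a log2 fold change of −1.19, but did not pass (paired limma adjusted p = 0.175).

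Robo2 and Robo1 encode slit receptors. Robo2 had 396, 1094 and 1000.3 normalized counts in control libraries and 728, 1634 and 1551 with YAP siRNA. It was higher in all 3 pairs by similar amounts, and both libraries of replicate 1 were well below the others of their group. This gave a log2 fold change of 0.70 (SE 0.117, limma adjusted p = 0.00737 paired, 0.0687 without replicate 2, and 0.646 unpaired). Robo1, named after its values were seen, had 1337, 3739 and 3926 and 1275, 2646 and 2329.8, with a log2 fold change of −0.44 and a paired limma adjusted p of 0.0535. Its unpaired value without replicate 1 was 0.00189, at −0.63. Robo1 supplied 81.0% of the summed level of both genes per kilobase in control libraries and 65.3% with YAP siRNA.

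The netrin and netrin receptor genes among the 55, Ntn1, Unc5b and Unc5c, did not pass. Ntn1, named after its values were seen, had 1592, 3524 and 3853 normalized counts in control libraries and 1599, 2619 and 2921 with YAP siRNA. Pair 1 showed no difference and pairs 2 and 3 were lower, with a log2 fold change of −0.27 over all pairs and a 95% interval of −0.53 to −0.02. Unc5c had 509.9, 1048 and 1105 and 795, 993 and 1380.4, with an interval of −0.05 to 0.63, and Unc5b had a log2 fold change of −0.25.

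**Figure D3:**
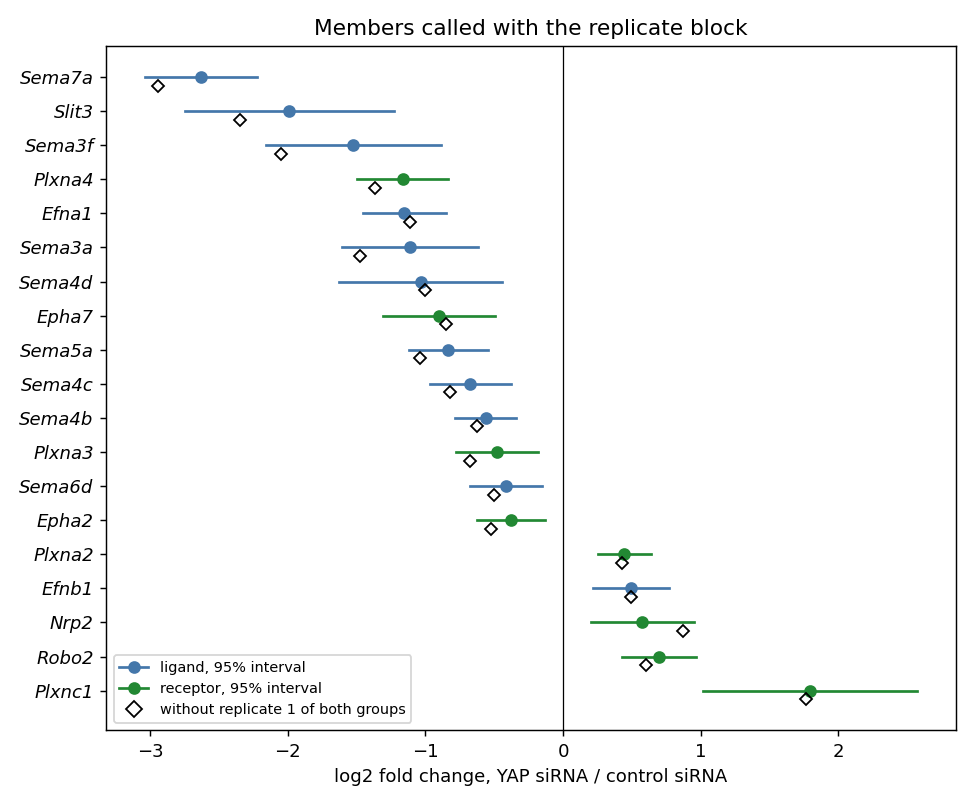
Log2 fold change of YAP siRNA over control siRNA for the 19 genes called in the paired limma fit, with the 95% interval of that fit, ligands in blue and receptors in green; open diamonds give the value without replicate 1 of both groups. Sema7a lies lowest at −2.63 and Plxnc1 highest at 1.79, and the diamonds keep the sign of the circles for each of the 19.

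Most of these genes were lower in replicate 1 than in replicates 2 and 3 of the same group. Over the 55 genes, the median of log2 replicate 1 minus the mean of log2 replicates 2 and 3 was −0.84 in control libraries and −0.62 with YAP siRNA. Over all tested genes it was −0.0033 and −0.015. In the controls 41.8% of the 55 genes were more than 2-fold lower in replicate 1, where 14.8% of all tested genes were. The gap was widest for Sema4g at −4.09 in the controls, and Nrp2 went the other way at 0.84. The median log2 fold change between siRNAs over the 55 genes was −0.25, so the median gap in either group was larger in size. Single genes differed in this. For Sema3f the control gap was −2.39 at a log2 fold change of −1.52, and for Sema7a it was −0.59 at −2.63. Whether the gap of replicate 1 reflects the state of the culture, the library or another cause was not tested.

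**Figure D4:**
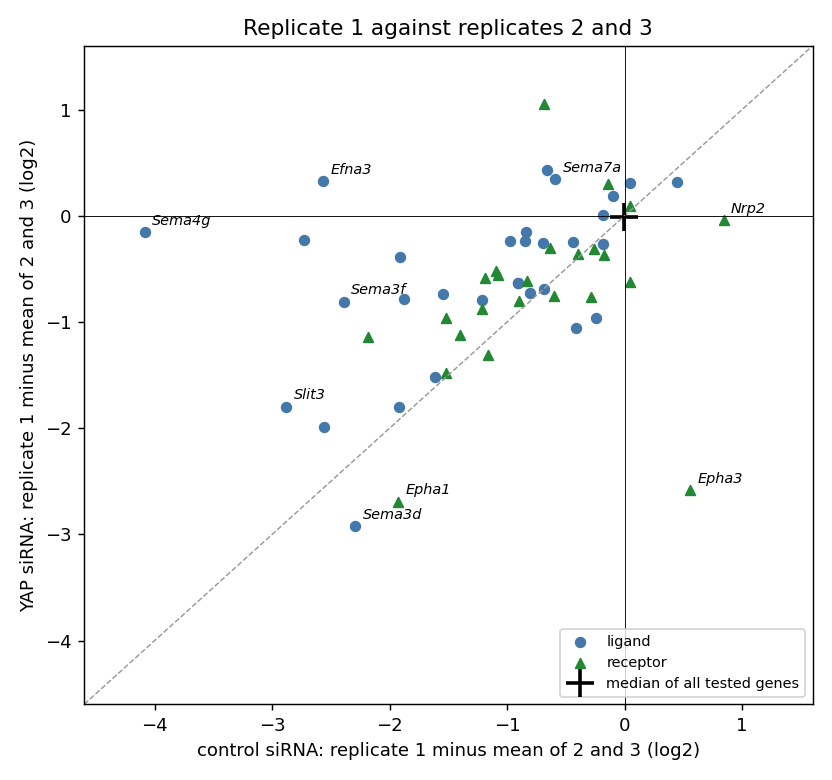
For each of the 55 genes, log2 normalized count + 1 in replicate 1 minus the mean of replicates 2 and 3, in the controls (horizontal axis) and with YAP siRNA (vertical axis), with ligands as circles, receptors as triangles and the median of all tested genes as a cross. Most genes lie below and to the left of the cross, which is near 0 on both axes.

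Levels between genes can be compared only per length, here as normalized counts per kilobase of merged exons. In the controls the other semaphorins summed to 6756 ± 1709 per kilobase and the class 3 semaphorins to 2700.0 ± 1458 (SD, n = 3). After YAP siRNA these sums were 2791 ± 166 and 1355 ± 320 (SD, n = 3). For the other semaphorins the control libraries had 4825, 7371 and 8073 and the YAP siRNA libraries 2617, 2807 and 2949, so the groups did not overlap. In the class 3 sum control replicate 1, at 1044, lay within the range of the YAP siRNA libraries. Sema5a held 40.8% of the first sum in control libraries and 53.7% with YAP siRNA, and Sema3f held 45.3% and 25.4% of the second.

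Receptor sums per kilobase overlapped between the groups in several families. Class A plexins had 2543 ± 456 in control libraries and 2571 ± 315 with YAP siRNA, with Plxna1 as the largest part at 63.2% and 67.2%. Plexins of classes B to D had 3882 ± 1086 and 3856 ± 920, with Plxnb2 at 90.0% and 87.4%. Neuropilins had 2963 ± 494 and 3718 ± 240 (SD, n = 3 for each). Both plexin sums differed between the groups by less than the SD between libraries. The EphA sum was 3691 ± 252 and 2853 ± 314 and the ephrin A sum 917 ± 102 and 624 ± 82.8 (SD, n = 3), and in neither did the groups overlap.

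RefSeq promoter windows were found for 47 of the 55 genes, 63 windows in all. The TEAD core GGAATG was present on either strand in 8 of these windows (12.7%), and in 14.7% of all 32851 windows. Among the 26 windows of called genes it was found in 2 (7.69%), those of Epha2 and Robo2. TGANTCA was found in 4.76% of the windows of the 55 genes and in 7.81% of all windows, and among called genes in those of Sema4c and Sema4d. These shares are given as a description of the windows.

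Other genes of the same pathways were taken from a list of 85 names, of which 74 were tested. With the block 5 rose and 8 fell, which is 6.76% and 10.8% of them beside 8.32% and 8.96% of all tested genes, and the median log2 fold change was 0.022. Among 16 surface or secreted proteins 0 rose and 4 fell, and among 58 cytoplasmic effectors 5 rose and 4 fell. Ntng1, which encodes the lipid-anchored netrin-G1, had 507, 1098 and 1126 normalized counts in control libraries and 149, 467 and 279 with YAP siRNA. All pairs were lower and the groups did not overlap, with a log2 fold change of −1.67 (SE 0.172, limma adjusted p = 0.00164 paired and 0.274 unpaired). Gpc1, the gene of the heparan sulfate proteoglycan glypican-1, which binds slits, had 19378, 32816 and 33859 and 11809.5, 15378 and 14422 normalized counts. Its log2 fold change was −1.01, again with groups that did not overlap. Ngef, the gene of the exchange factor ephexin-1 that EphA receptors use, fell by 0.53 on the log2 scale, and did not pass without replicate 2 (limma adjusted p = 0.0774 with the block).

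The effectors that rose with the smallest p were Rac1, Ablim1 and Rras2. Rac1, a small GTPase of actin assembly, had 7129, 2111 and 3568 normalized counts in control libraries and 13645, 3904 and 5056 with YAP siRNA, so that the replicate number moved it more than the siRNA. Its log2 fold change was 0.78 (SE 0.106, limma adjusted p = 0.00368 paired and 0.683 unpaired). Ablim1, which encodes an actin-binding LIM protein, rose by 0.75 on the log2 scale. Rras2, a relative of the R-Ras proteins that plexins switch off, rose by 0.58 and did not pass without replicate 2 or 3 (paired limma adjusted p = 0.121 and 0.0535).

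Of the 8 genes below a mean of 10, Epha6, Robo3 and Sema5b had 0 reads in every library. The limit that a count of 0 allows is 3 reads, which is 4.55 normalized counts in control replicate 1, where 1 read is worth most, and covers counting error only. Epha5, Epha10, Ephb1 and Robo4 had means from 0.260 to 1.00. Plxnb3, at a mean of 8.37, was just under the threshold, and Slit1, at 11.7, just above it.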

How the data were processed

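Poly(A) RNA of 6 libraries was sequenced as paired-end barcoded libraries after ligation of directional adapters, per the labels' protocols. The submitters' processing notes name the build mm9 and, as tools, DESeq 1.14.0, HTSeq 0.6.1 and TopHat2 2.0.9. The sources used here do not state annotation, strand setting, filters or how reads shared between paralogues were treated. The deposited values are a signal unit, counts divided by the authors with 1 size factor per library, per the file headers and the values. All values above 0 were whole multiples of 1 read within 0.01 reads (100% in each library), so reads were recovered. Every pair of libraries in a group differed by more than sampling noise (chi-square per degree of freedom 8.31 to 282).

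Tests used limma 3.58.1 under R 4.3.3 on log2 values after adding 1 (mean-variance trend, two-sided, Benjamini-Hochberg over all 12820 genes with a mean of at least 10). Fold changes are on that scale and understate those of low genes. The main design had no covariate. The other fit had the replicate number as a block: deviations from group means correlated between same-numbered libraries at 0.788 (replicate 1), 0.705 (replicate 2) and 0.532 (replicate 3), each above 0.1, so libraries were treated as paired by number. No label names a shared day or batch. Replicate 2 also correlated with replicate 3 across groups (0.516 and 0.552), above 0.1 as well. The 0.552 exceeds the 0.532 of replicate 3, so the limit of 0.1 cannot tell how replicates 2 and 3 match. edgeR 4.0.16 and DESeq2 1.42.0 were run on recovered reads. The fits, except limma without a trend, were also run on simulated data. Pairing by replicate number was built into these data, so they cannot show whether the real libraries are paired. Exon lengths and overlaps came from GENCODE M21, another build, so no coordinates of the files are given.

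Genes were named if they were the siRNA target, if called with the block, if they had the largest fold change of their family, or if they lay next to the mean of 10; of the outside list, the 3 in each direction with the smallest p. Members, lists and rules were chosen with earlier results of these data known. Other pseudocounts, filters, scalings and left-out libraries were tried.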

Additional observations from a re-analysis of the deposited data

How the results depend on the processing

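The count of axon guidance genes called was 0 higher and 0 lower of 55 without pairing in limma, also with pseudocounts of 0.5 and 10, with no filter or a mean of at least 50, with one common total, with quantile normalization, without a trend and in edgeR; over all genes it was likewise 0 and 0. DESeq2 without pairing gave 2 and 6, and 325 and 397 over all genes. With the replicate block, limma gave 5 and 14 (1067 and 1149 over all genes). With the replicate block and pseudocount 0.5 the counts were 5 and 14 (1053 and 1137), with pseudocount 10 5 and 15 (1072 and 1163), with no filter 5 and 13 (1000 and 1137), and with a mean of at least 50 5 and 14 (1049 and 1103). With one common total they were 5 and 12 (1225 and 1027), a scaling that turns more calls over all genes to higher, and with quantile normalization 5 and 15 (1167 and 1182). With the block edgeR gave 5 and 17 (1190.0 and 1289) and DESeq2 6 and 17 (1182 and 1308), while limma without a trend gave 0 and 0 (12 and 18). Unpaired and without replicate 1 of both groups, chosen after seeing the data, they were 7 and 23 (1912 and 2106). Leaving out single libraries or same-numbered pairs gave 0 to 9 higher and 0 to 28 lower (0 to 2804 and 0 to 2792 over all genes). The highest came from the paired fit without replicate 1. In the unpaired fit, leaving out control replicate 1 gave 1 and 8 (192 and 305), and leaving out YAP siRNA replicate 1 gave 0 and 0 (3 and 5).

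Yap1 was past the threshold with the replicate block at a log2 fold change of −3.00, at −3.00 and −2.98 with pseudocounts 0.5 and 10, at −2.97 with one common total, at −3.00 with quantile normalization, no filter or a mean of at least 50, at −2.99 in edgeR and −3.00 in DESeq2, and at −2.94 in DESeq2 without the block. It was at −3.32 unpaired without replicate 1, and at −3.32 to −2.79 over left-out libraries. It did not pass unpaired in edgeR (adjusted p = 0.130), in any other unpaired limma setting with all libraries (0.0883 to 0.121), paired without a trend (0.0604), or unpaired without control replicate 2 or 3 or YAP siRNA replicate 2 or 3 (0.631 to 0.740). Signs turned over left-out libraries for these genes, which did not pass: Ephb6 ranged from −0.67 to 0.15, Nrp1 from −0.031 to 0.18, Plxna1 from −0.028 to 0.22, Slit2 from −0.15 to 0.36 and Unc5c from −0.065 to 0.49. Leaving out a same-numbered pair also turned the sign of Efna2, Efna4, Plxnb2, Sema3g, Sema6b and Sema6c, which did not pass either. The cause of these differences was not tested.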
